A study of Homo sapiens with 6 samples.

Results

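Fibronectin, tenascin-C, the thrombospondins and the matricellular proteins SPARC, SPARCL1, periostin and osteopontin were followed as 44 probe sets of 9 genes: every probe set that the platform annotation assigns to exactly 1 of FN1, TNC, THBS1, THBS2, THBS3, SPARC, SPARCL1, POSTN and SPP1. The table held 49395 probe sets, 44988 of them with a single gene symbol, for 18132 genes. RNA came from the human cell line LX-2, derived from hepatic stellate cells, which are the liver cells that become matrix-producing myofibroblasts in fibrosis. All cells were kept without serum for 12 h. For a further 24 h, 3 samples then received recombinant human BMP9 at 50 ng/ml and 3 control samples received 0 ng/ml, and each sample was measured on 1 array. Both groups are 1 cell line in culture, and the labels name no other cell type. The labels name biological replicates without stating whether cultures were separate, and a p-value here covers only the spread among these 6 samples, which may be technical.

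These proteins lie between the structural fibres of the matrix and the cell surface. Fibronectin is assembled by integrins into fibrils on which collagen is laid down, and tenascin-C, thrombospondins, SPARC, periostin and osteopontin are matricellular proteins, which bind matrix, growth factors and receptors and change how cells adhere. Several of them are classical products of activated stellate cells and of TGF-beta signalling, while BMP9 belongs to the same ligand family and signals mainly through SMAD1, SMAD5 and SMAD9.

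SPARCL1 was called higher with BMP9 in 2 of its 3 probe sets. It was the only member gene called in the fit of all probe sets on the deposited values. On those values THBS3 and TNC were called only with a filter on dim probe sets or, for THBS3, another variance prior. The called SPARCL1 probe sets were 1.47-fold and 1.56-fold higher. The third was 1.32-fold higher without passing in that fit, and passed with the filter and with the other prior. Of the 44 member probe sets 2 were called higher and 0 lower (limma adjusted p under 0.05, over all 44988 single-gene probe sets), and 11 of 44 had an unadjusted p under 0.05, against 11.4% of all. Over all single-gene probe sets 0.436% were called, 0.133% higher and 0.302% lower. The groups did not overlap in 13 member probe sets, against 17.3% of all single-gene probe sets. In such bulk samples a change in the share of cells that express a gene and a change in RNA per cell cannot be told apart. Probe sets of a gene share its transcripts and are not independent of each other. The members were chosen with earlier results of these data known, so such shares are descriptions only. The median log2 difference was 0.028 over the members and 0.0073 over all single-gene probe sets. With 1 probe set per gene, the brightest, 1 of the 9 member genes was called higher and 0 lower, beside 0.232% and 0.452% of all genes (0.684% in either direction). The groups did not overlap in 4 of the 9, against 18.8% of all genes. These counts depend on the scale and the filter. With arrays scaled to the poly-A controls, 39 of the 44 member probe sets were called higher, near the 92.8% of all probe sets, and all 20 negative member differences turned positive. With hybridisation controls, 10 were called higher, beside 21.3% of all, and 16 of the 20 turned. Among probe sets with a mean log2 value of at least 5, 4 of 11 members were called higher and 1 lower, against 1.63% and 2.46% of the probe sets tested. With an intensity trend and robust prior 4 of 44 were called higher, against 0.32%. The called SPARCL1 probe sets were called higher under each of these settings. The 2 control scalings raised the difference of every probe set, so a higher call kept there does not test it.

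**Figure D1:**
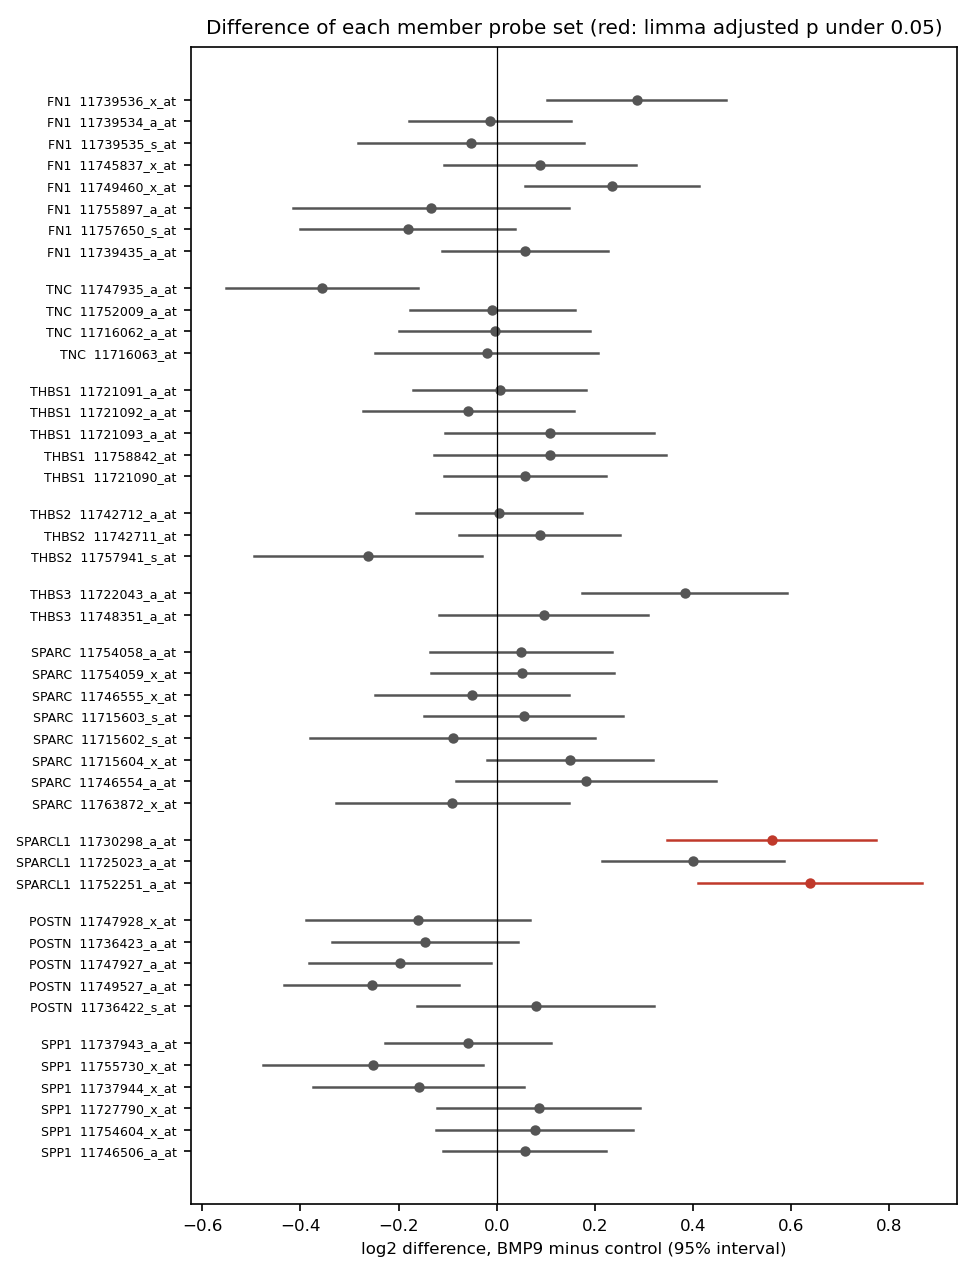
The log2 difference, BMP9 minus control, of each of the 44 member probe sets, with its 95% interval from limma and n = 3 arrays per group; red marks an adjusted p under 0.05. The 2 red SPARCL1 probe sets lie at 0.56 and 0.64, and most other intervals cross 0.

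For a look at upstream sequence, SPARCL1, which rose, and TNC and THBS3, with the largest differences after it, were picked by their values. SPARC, a close relative of SPARCL1 that did not pass the test, was added. The sequences upstream of these 4 genes are shown as a description only. They are RefSeq sequences of GRCh38.p14, and all 9 member genes matched this table, in 10 windows. Each covers the 250 bases before the annotated start. Capitals mark the SMAD box GTCT, on either strand (AGAC), and the GC element GGCGCC, which reads the same on both strands and is a known binding element of BMP-activated SMADs. The box CAGAC, or GTCTG on the other strand, contains AGAC or GTCT. The SPARCL1 stretch is chr4:87529377-87529626, the SPARC stretch chr5:151686916-151687165 and the TNC stretch chr9:115118158-115118407, all on the minus strand. The SPARC and TNC stretches each overlap an annotated long non-coding RNA, and the SPARCL1 stretch overlaps no gene.
SPARCL1: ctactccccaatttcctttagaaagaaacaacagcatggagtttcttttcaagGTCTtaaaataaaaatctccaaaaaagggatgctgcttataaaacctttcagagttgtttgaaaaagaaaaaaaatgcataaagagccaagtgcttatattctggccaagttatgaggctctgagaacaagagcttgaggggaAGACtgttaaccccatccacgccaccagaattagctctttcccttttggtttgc
SPARC: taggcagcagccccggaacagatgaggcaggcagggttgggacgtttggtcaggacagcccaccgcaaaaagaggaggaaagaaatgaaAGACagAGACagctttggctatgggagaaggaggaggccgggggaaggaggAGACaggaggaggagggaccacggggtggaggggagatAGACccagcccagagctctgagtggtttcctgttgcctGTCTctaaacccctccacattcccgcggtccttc
TNC: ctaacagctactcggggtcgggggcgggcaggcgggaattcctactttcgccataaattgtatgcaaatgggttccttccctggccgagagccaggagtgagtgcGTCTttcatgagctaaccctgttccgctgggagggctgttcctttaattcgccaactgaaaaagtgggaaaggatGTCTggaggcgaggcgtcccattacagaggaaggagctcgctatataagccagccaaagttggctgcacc

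The SPARCL1 stretch held GTCT or AGAC at 2 places, 197 and 54 bases before the start, and neither CAGAC nor GGCGCC. The SPARC stretch held the short box at 5 places and likewise neither of the longer ones, and TNC held it at 2, of which the match 70 bases before the start was also a CAGAC match. THBS3 has 2 annotated starts. GGCGCC was found only in the window of the outer start, which overlaps the neighbouring gene MTX1, at 175, 169 and 84 bases before it, and in no window of the other 8 genes. The first pair lies in the 30 bases at chr1:155209333-155209362, minus strand.
THBS3: acagcagagGGCGCCGGCGCCacccctcac

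Of all 35116 annotated promoter windows of this length, 77.5% held GTCT or AGAC, 38.0% held CAGAC or GTCTG, and 16.4% held GGCGCC. A match describes letters in the window and is neither a bound site nor a cause. SPARCL1, the called member, held only the short box, which most windows hold.

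SPARCL1 encodes hevin, a secreted calcium-binding glycoprotein related to SPARC and known as an anti-adhesive component of the matrix. In probe set 11730298_a_at the control arrays read 5.82, 5.66 and 5.98 and the BMP9 arrays 6.36, 6.32 and 6.47 (log2). In 11752251_a_at the controls read 5.36, 5.03 and 5.19 and the BMP9 arrays 5.94, 5.69 and 5.87. In 11725023_a_at the controls read 5.26, 5.32 and 5.45 and the BMP9 arrays 5.81, 5.73 and 5.69. Every BMP9 array lay above every control array in all 3 probe sets. The first rose by 0.56 (SE 0.096, 95% interval 0.35 to 0.77, limma adjusted p = 0.0350) and the second by 0.64 (SE 0.10, interval 0.41 to 0.87, limma adjusted p = 0.0264). The third differed by 0.40 (SE 0.084, interval 0.22 to 0.58) and did not pass (limma adjusted p = 0.0894). Each call was lost when most single arrays were left out. That of 11730298_a_at was kept when control replicate 3 was left out and lost when any other array was left out (0.48 to 0.64, limma adjusted p 0.0324 to 0.183). That of 11752251_a_at was kept without control replicate 1 and lost without any other array (0.56 to 0.72, limma adjusted p 0.0348 to 0.139).

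**Figure D2:**
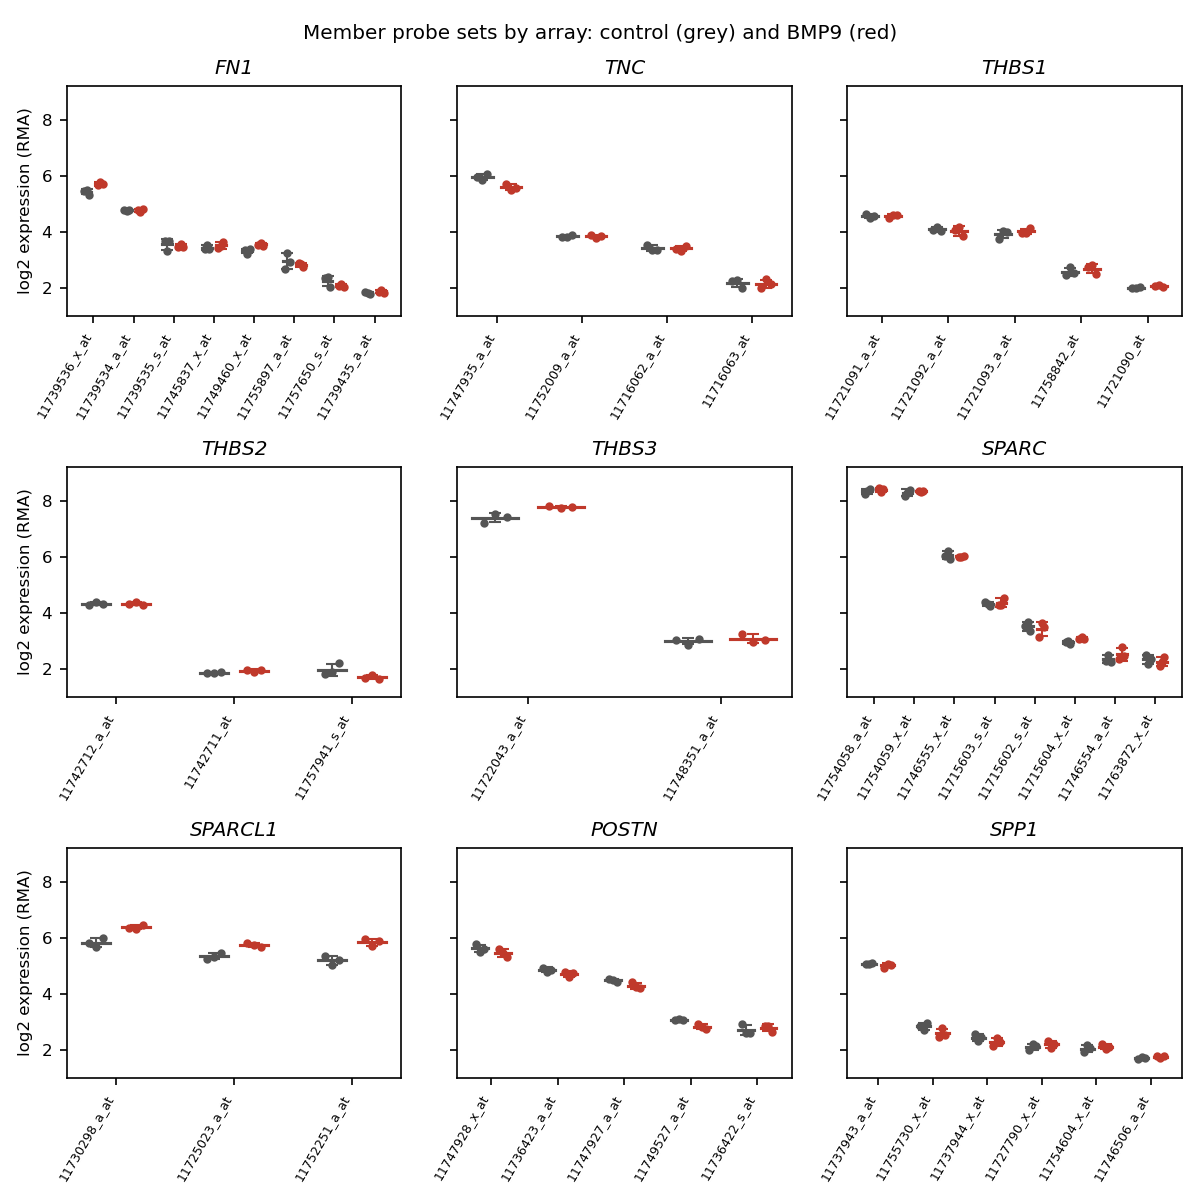
The log2 expression value of every member probe set on each array, control in grey and BMP9 in red, with the group mean (line) and SD (error bar, n = 3 arrays); each panel is 1 gene with its probe sets from bright to dim. The BMP9 points lie above the control points in all 3 SPARCL1 probe sets and in 1 of 2 for THBS3, and, on this deposited scale, below them in 1 of 4 for TNC. These are among 13 probe sets with no overlap between the groups. The others belong to FN1, POSTN, THBS1, THBS2 and SPARC, and 1 of them differs by 0.057 only.

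SPARC itself, a collagen-binding glycoprotein also called osteonectin, had 8 probe sets and 0 calls, 5 of them with a positive difference. Its brightest, 11754058_a_at, read 8.24, 8.34 and 8.43 in control and 8.44, 8.31 and 8.40 with BMP9. The groups overlapped, and the difference of 0.049 had a 95% interval of -0.14 to 0.23 (limma adjusted p = 0.866). On the deposited scale this interval lies below 0.40, the estimate for the least changed SPARCL1 probe set, as do those of 6 of the other 7. That of the dim 11746554_a_at, -0.083 to 0.45, does not. The 0.40 has its own interval, 0.22 to 0.58, which overlaps that of 11754058_a_at. Over all settings run, control scalings included, the difference of 11754058_a_at reached 0.58. The next, 11754059_x_at, differed by 0.052 with BMP9 arrays between 8.31 and 8.35. The remaining 6 differed by -0.090 to 0.18, and in 11715604_x_at, at a mean of 3.02, the BMP9 arrays lay above the control arrays without passing (0.15, limma adjusted p = 0.498). Within each array, the SPARCL1 value less the SPARC value (brightest probe sets) went from -2.51 ± 0.14 to -2.00 ± 0.077 (SD, n = 3), a shift of 0.51 with no overlap. Such a difference within an array is untouched by any scaling of whole arrays. The pair was chosen after the values were seen. An exact permutation over the arrays gave p = 0.1, the smallest it can give here, so the shift is a description only.

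Thrombospondins are secreted calcium-binding glycoproteins; THBS1 and THBS2 form trimers that bind CD36 and CD47, and THBS1 can activate latent TGF-beta, while THBS3 belongs to the pentameric subgroup. THBS3 had a bright probe set, 11722043_a_at, at 7.21, 7.54 and 7.43 in control and 7.80, 7.74 and 7.79 with BMP9. The BMP9 arrays lay close together and above all controls. The difference was 0.38 (SE 0.095, 95% interval 0.17 to 0.59), or 1.30-fold, and missed the threshold over all probe sets (limma adjusted p = 0.149). It passed when the test was limited to probe sets with a mean log2 value of at least 5 (limma adjusted p = 0.0313) and with an intensity trend and robust prior (0.0412). Over all settings run, control scalings included, its limma adjusted p went down to 1.43e-05. Poly-A scaling called 92.8% of all probe sets higher. The other THBS3 probe set, 11748351_a_at, read 2.86 to 3.05 in control and 2.97 to 3.25 with BMP9, with overlapping groups.

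THBS1 and THBS2 showed no call in 5 and 3 probe sets. The brightest of THBS1, 11721091_a_at, read 4.64, 4.50 and 4.56 in control and 4.50, 4.61 and 4.61 with BMP9, a difference of 0.0059 with a 95% interval of -0.17 to 0.18. Its other 4 differed by -0.058 to 0.11. In 11721090_at, at a mean of 2.03, the groups did not overlap although they differed by 0.057 only. The brightest of THBS2, 11742712_a_at, read 4.28, 4.37 and 4.32 in control and 4.31, 4.39 and 4.29 with BMP9, a difference of 0.0049 (interval -0.16 to 0.17). These differences of THBS1 and THBS2 turned negative with array centring or further quantile normalisation, by less than 0.01. The 2 dim THBS2 probe sets moved in opposite directions, 0.088 in 11742711_at and -0.26 in 11757941_s_at, each with no overlap between the groups and neither passing (limma adjusted p = 0.701 and 0.384). Within each array, THBS3 less THBS1 shifted by 0.38 and THBS3 less THBS2 by 0.38, pairs also chosen after the values were seen. The last of the 4 pairs run, TNC less FN1, shifted by -0.64. For these pairs too the exact permutation gave its smallest possible p, 0.1, so the shifts are descriptions only. All pairs used the brightest probe set of each gene. For TNC and FN1 that probe set also had the largest absolute difference of its gene. The next brightest differed by -0.0087 for TNC and -0.013 for FN1.

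**Figure D3:**
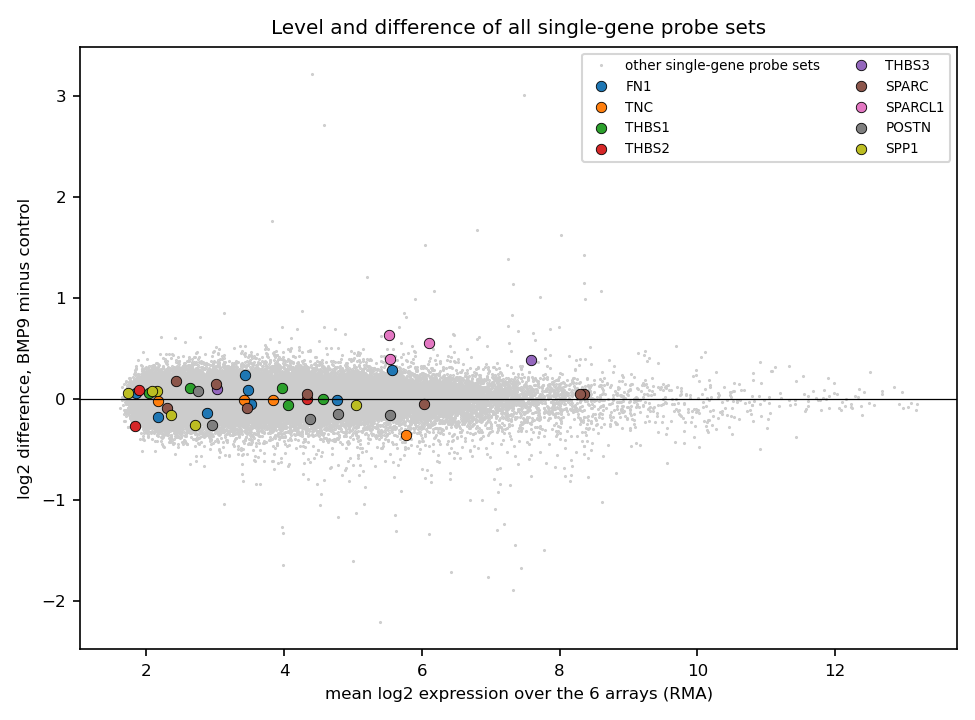
Mean log2 expression over the 6 arrays (horizontal) against the log2 difference, BMP9 minus control (vertical), for all 44988 single-gene probe sets (grey) and the 44 members (coloured by gene). SPARCL1 lies at the upper edge of the grey cloud, THBS3 above 0 at 7.58, TNC below it at 5.77, and the 2 brightest SPARC probe sets close to 0.

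FN1 encodes fibronectin, whose fibrils bind the integrin made of ITGA5 and ITGB1. It had 8 probe sets and, on the deposited values, 0 calls, with 4 positive and 4 negative differences. In 11739536_x_at, the brightest, the control arrays read 5.44, 5.50 and 5.33 and the BMP9 arrays 5.65, 5.78 and 5.69. In 11749460_x_at the controls read 3.34, 3.22 and 3.38 and the BMP9 arrays 3.54, 3.59 and 3.51. The groups did not overlap in either, with differences of 0.28 (95% interval 0.10 to 0.47, limma adjusted p = 0.224) and 0.23 (interval 0.058 to 0.41, limma adjusted p = 0.301). Both names end in _x_at, the ending for probe sets with some probes that also match other transcripts. The next brightest, 11739534_a_at, read 4.79, 4.76 and 4.78 in control and 4.78, 4.71 and 4.81 with BMP9, a difference of -0.013 (interval -0.18 to 0.15). The other 5 differed by -0.18 to 0.088 with overlapping groups, so the FN1 probe sets gave no common direction on the deposited scale. All 8 were positive with poly-A scaling. The brightest, 11739536_x_at, was called higher with hybridisation scaling (limma adjusted p = 0.0160) and poly-A scaling (7.78e-05). These scalings called 21.3% and 92.8% of all probe sets higher.

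TNC encodes tenascin-C, a hexameric glycoprotein of wounds and fibrotic tissue that interferes with adhesion to fibronectin. Its brightest probe set, 11747935_a_at, read 5.95, 5.86 and 6.05 in control and 5.71, 5.50 and 5.57 with BMP9. All BMP9 arrays lay below all controls. The difference was -0.36 (SE 0.089, 95% interval -0.55 to -0.16), or 1.28-fold lower, and missed the threshold over all probe sets (limma adjusted p = 0.151), but passed among probe sets with a mean of at least 5 (limma adjusted p = 0.0295). It turned positive (0.18) with scaling to the poly-A controls. The other 3 TNC probe sets, at means of 3.84, 3.41 and 2.16, differed by -0.021 to -0.0043 with overlapping groups and turned positive with either control scaling.

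POSTN encodes periostin, a fasciclin-domain protein that binds fibronectin, tenascin-C and collagen and is made by TGF-beta-stimulated fibroblasts. None of its 5 probe sets was called, and 4 had a negative difference. In 11747928_x_at the controls read 5.76, 5.48 and 5.61 and the BMP9 arrays 5.61, 5.46 and 5.30, with overlap (-0.16, 95% interval -0.39 to 0.068). In 11747927_a_at the controls read 4.52, 4.50 and 4.42 and the BMP9 arrays 4.41, 4.23 and 4.21, with no overlap (-0.20, limma adjusted p = 0.406). In 11749527_a_at the controls read 3.05, 3.12 and 3.06 and the BMP9 arrays 2.92, 2.80 and 2.75, again with no overlap (-0.25, limma adjusted p = 0.264). The fourth negative probe set differed by -0.15 and the remaining one by 0.079, both with overlap. All 4 negative differences turned positive with poly-A scaling, 3 of them also with hybridisation scaling.

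SPP1 encodes osteopontin, a phosphorylated ligand of integrins and CD44. Its brightest probe set, 11737943_a_at, read 5.06, 5.06 and 5.08 in control and 4.94, 5.08 and 5.01 with BMP9, a difference of -0.059 (95% interval -0.23 to 0.11, limma adjusted p = 0.818). The other 5 had means of 1.73 to 2.71 and differed by -0.25 to 0.085. The groups overlapped in all 6, and the 3 negative differences turned positive with poly-A scaling.

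**Figure D4:**
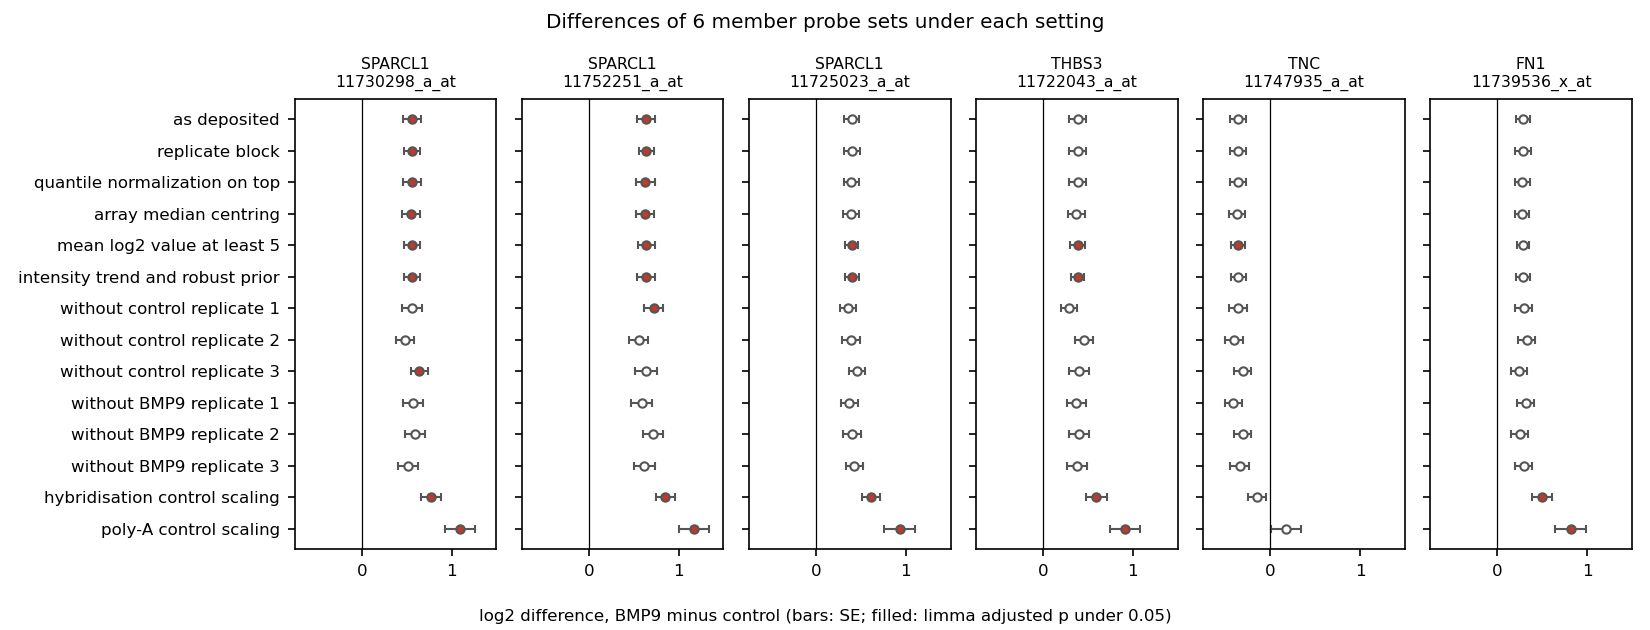
The log2 difference, BMP9 minus control, of 6 member probe sets (points; bars are limma's SE) with the deposited values and under 13 other settings; filled points have an adjusted p under 0.05, and a setting a probe set did not enter has no point. SPARCL1 stayed positive throughout, and its 2 called probe sets each lost the call in 5 of the 6 settings that leave out 1 array; TNC turned positive with poly-A scaling only.

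The dim probe sets need care, since the table holds no detection calls. The array's 23 background probe sets, which are built by GC content and match no transcript, had mean log2 values from 1.67 to 10.0, with a median of 2.39. Of the 44 member probe sets 33 lay above that median and 0 above the brightest. The GC content of the member probes is not given, so no member is known to lie above background. Of 11 members with a mean of at least 5, 2 were called and 6 had groups that did not overlap; of the 33 dimmer ones 0 were called and 7 did not overlap. Over all single-gene probe sets 1.23% of those with a mean of at least 5 and 0.197% of the others were called, and the groups did not overlap in 24.6% of those with a mean of at least 5 and in 15.1% of the others.

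Genes known to rise with BMP signalling were read first as a check of the labels. SMAD6, an inhibitory SMAD, rose by 3.01 (limma adjusted p = 3.97e-07) and ID3 by 1.63 (limma adjusted p = 8.65e-05), while the brightest ID1 probe set differed by 0.14 without passing (limma adjusted p = 0.582). ID2 rose by 1.21 (limma adjusted p = 0.0492), and SMAD7 differed by 0.21 without passing (limma adjusted p = 0.390). Across genes, Pearson's r was 0.993 to 0.995 for arrays of the same group and 0.991 to 0.993 for arrays of different groups; genes are not independent replicates. All 10 stellate cell markers were measured and 0 called, from 3.97 for ACTA2 to 11.4 for VIM, and 9 of the 10 did not exceed the brightest background probe set. Their mean per array was 6.41 to 6.51 in control and 6.48 to 6.54 with BMP9. That mean joins markers that differed in opposite directions with no overlap: VIM, an intermediate filament gene, by -0.37 (limma adjusted p = 0.0786) and HAND2, a transcription factor gene, by 0.30 (limma adjusted p = 0.121). Of the hepatocyte, endothelial, macrophage and leukocyte, and cholangiocyte markers 0 were called, and the mean of each list overlapped between the groups. For hepatocyte markers it was 4.57 to 4.62 in control and 4.58 to 4.62 with BMP9. That mean too joins opposite differences with no overlap, SERPINA1 by 0.27 (limma adjusted p = 0.336) and ALB by -0.22 (limma adjusted p = 0.339). The cholangiocyte marker EPCAM, at a mean of 2.09, differed by 0.34 with no overlap (limma adjusted p = 0.124). The groups overlapped for every other marker of these lists. The spiked control probe sets read lower with BMP9, 9.95 against 10.16 for the 18 hybridisation controls and 5.61 against 6.15 for the 24 poly-A controls. Scaling to them moved the median difference of all single-gene probe sets to 0.22 and 0.54, and the calls from 60 higher and 136 lower to 9566 and 137, and to 41768 and 29. The differences given here are on the deposited scale, relative to those shifts, and a negative difference smaller than a shift turns positive with it.

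Among relatives of these genes (other thrombospondins, tenascins, SPARC-family, fasciclin and osteopontin-family members, and vitronectin) 16 of 17 were measured and 0 called, with 3 at an unadjusted p under 0.05 against 12.9% of all genes, a median difference of 0.012 against 0.014, and 9 positive against 54.7% of all genes. MEPE, a relative of SPP1 in the same family of bone matrix phosphoproteins, read 4.78, 4.95 and 4.65 in control and 5.17, 5.15 and 5.42 with BMP9, a difference of 0.45 with no overlap (limma adjusted p = 0.0926). SPOCK1, a proteoglycan related to SPARC, differed by 0.23 (limma adjusted p = 0.324). Of their receptors 14 of 15 were measured and 0 called, with 6 of 14 (42.9%) at an unadjusted p under 0.05, against 12.9% of all genes. On the deposited scale 12 of 14 were positive, against 54.7% of all genes, with a median difference of 0.064 against 0.014. The lists were chosen with earlier results of these data known, so such shares are descriptions only. CD36, a thrombospondin receptor, averaged 2.10 ± 0.15 over the control arrays against 2.55 ± 0.18 after BMP9 (n = 3 each, ± SD). It was not called (limma adjusted p = 0.120), and its mean over all arrays, 2.32, lay below the background median of 2.39. The integrin gene ITGB8 differed by 0.29 (limma adjusted p = 0.153). Of 12 matrix partners and processing enzymes, all measured, 1 was called lower and 0 higher, beside 0.452% and 0.232% of all genes. The groups did not overlap in 4 of the 12, against 18.8% of all genes, and 3 had an unadjusted p under 0.05, against 12.9%. Differences were positive in 6, with a median of 0.0054 against 0.014. The called gene was COL3A1, a fibrillar collagen gene, which fell by 1.29 (limma adjusted p = 2.35e-05).

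The 3 genes whose 6 values, each less its own control mean, lay nearest to those of SPARCL1 were NUP93, a nuclear pore scaffold gene, GADD45G, a stress response gene, and SH3KBP1, an adaptor gene. Their Euclidean distances over the 6 arrays were 0.21, 0.23 and 0.24 (log2). They differed by 0.49, 0.46 and 0.52, of which those of NUP93 (limma adjusted p = 0.0234) and SH3KBP1 (0.0411) passed and that of GADD45G did not (0.108). No function or control in common follows from this nearness.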

How the data were processed

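Per the labels' protocols, a 3′ IVT kit turned total RNA into biotin-labelled cRNA, hybridised to 1 array per sample. The deposited log2 values per probe set were made by the authors with RMA, per the submitters' processing notes; RMA's version is not given in the sources used here, and the log base was taken from the range of the values. RMA normalises arrays by quantiles, so a change common to most transcripts is largely removed. All 6 columns matched a sample, and at most 0.00405% of values were identical between arrays.

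Probe sets with several symbols (1832) or none (2473) and the 102 array controls were left out of the tests. limma 3.58.1 (lmFit, eBayes, no covariate) under R 4.3.3 was fitted to all single-gene probe sets, and again with the brightest probe set per gene, with Benjamini-Hochberg adjustment and a threshold of 0.05; no filter on dim probe sets was used. The variance prior carried 6.71 degrees of freedom (residual: 4), and a difference had a median SE of 0.091. The script was tested on simulated data. Differences are BMP9 minus control. The number of arrays limits the precision.

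The members and lists were chosen with earlier results of these data known. The text names every member and the called genes of each list or else the 2 with the smallest p. It also names ID1, ID2, ID3, SMAD6 and SMAD7, the 3 genes nearest to the member gene with the smallest p, and cell type markers with no overlap. Alternatives were a replicate block, quantile normalisation, median centring, scaling to control probe sets, a minimum mean of 5, a robust trend, no _s_at or _x_at probe sets, averaged probe sets and each array left out. A planned comparison of protein motifs was not run, since no protein table was used here. Figures were drawn with matplotlib 3.10.9.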

Additional observations from a re-analysis of the deposited data

How the results depend on the processing

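SPARCL1 kept its direction in all 3 probe sets under every setting run, and its 2 calls under all but the settings that leave out 1 array. The control scalings raised every difference, so they are no test of a rise. Without any array in turn, the called probe sets ranged from 0 to 1 among the members, 0 to 1 among the member genes, 81 to 129 among all probe sets, 54 to 78 among all genes, and stayed at 1 among the listed genes. With the replicate number as a block, 151 probe sets and 94 genes were called against 196 and 124; the member calls numbered 2 and 1 as before, and 2 listed genes were called against 1. Same-numbered arrays did not deviate together (r -0.0031, 0.036 and -0.024), and not every array correlated best with its own number. A minimum mean of 5, which tests fewer probe sets, called 426 probe sets, 267 genes, 5 member probe sets, 3 member genes and 3 listed genes. The robust trend called 405, 285, 4, 2 and 2. Without _s_at and _x_at probe sets 128 were called. Hybridisation scaling called 9703 probe sets, 4915 genes, 10 member probe sets, 3 member genes and 18 listed genes, and poly-A scaling 41797, 16912, 39, 8 and 37. Differences that turned positive with hybridisation scaling became 0.20, 0.16, 0.0777, 0.0303 for FN1, 0.20, 0.21, 0.19 for TNC, 0.15 for THBS1, 0.16, 0.12, 0.12 for SPARC, 0.0516, 0.0651, 0.0141 for POSTN, 0.15, 0.0527 for SPP1. With poly-A scaling they became 0.52, 0.48, 0.40, 0.35 for FN1, 0.18, 0.52, 0.53, 0.51 for TNC, 0.47 for THBS1, 0.27 for THBS2, 0.48, 0.44, 0.44 for SPARC, 0.37, 0.39, 0.33, 0.28 for POSTN, 0.47, 0.28, 0.37 for SPP1. THBS1 became -0.0054 with either median centring or quantile normalisation, and THBS2 -0.0064 and -0.0060, and -0.056 with averaged probe sets. Leaving out 1 array turned these differences, none of them called, with ranges of -0.033 to 0.012 (FN1 11739534_a_at), -0.17 to 0.011 (FN1 11739535_s_at), -0.27 to 0.013 (FN1 11755897_a_at), -0.025 to 0.018 (TNC 11752009_a_at), -0.054 to 0.056 (TNC 11716062_a_at), -0.10 to 0.051 (TNC 11716063_at), -0.028 to 0.043 (THBS1 11721091_a_at), -0.13 to 0.030 (THBS1 11721092_a_at), -0.023 to 0.030 (THBS2 11742712_a_at), -1.6e-05 to 0.097 (SPARC 11754058_a_at), -0.010 to 0.11 (SPARC 11754059_x_at), -0.11 to 0.029 (SPARC 11746555_x_at), -0.031 to 0.10 (SPARC 11715603_s_at), -0.20 to 0.058 (SPARC 11715602_s_at). The cause of these changes was not tested.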
